A study of Mus musculus with 28 samples.

Results

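The genes examined were Dcx, Dlx1, Dlx2, Dlx5, Dlx6, Sox11, Igfbpl1, Sp8 and Sp9, 9 genes known from neuroblasts, the migrating precursors of neurons, and from the Dlx lineage of the forebrain. They were taken by name from the 20660 gene symbols that the array probes could be matched to. They had 13 of the 55681 probes, and where a gene had several, the probe with the highest mean level was used. Levels were read in 28 brain fractions of 3 untreated male C57BL/6J mice, all 3 weeks of age after birth, kept free of pathogens and with no transgene or mutation named in the labels. Mouse 1 gave 12 coronal fractions, mouse 2 gave 6 horizontal fractions and mouse 3 gave 10 sagittal fractions, each a pool of consecutive frozen sections of the whole brain hybridised to 1 array. A position therefore has no replicate, plane and mouse cannot be told apart, and p-values measure the spread of the fractions of 1 brain around a curve.

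The labels number the fractions without naming a direction, so the direction was read from marker genes. The hindbrain list was highest in coronal fraction 1 and the list of mitral and tufted cells, the output neurons of the olfactory bulb, in coronal fraction 12. The cerebral cortex list was highest in horizontal fraction 1 and the hypothalamus list in horizontal fraction 6. In the sagittal series the hypothalamus list was highest in fraction 5, and the midline was taken between fractions 5 and 6. The label of coronal fraction 12 also names a following fraction, so it may be wider than the others. A level below is log2 of the processed intensity minus the 75th percentile of its array, which makes it 0 for a probe as bright as that percentile. Levels are compared between fractions of 1 gene and not between genes, since probes differ in how they bind.

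In the postnatal rodent brain, stem cells of the ventricular and subventricular zone give rise to dividing precursors and then to neuroblasts, which travel in chains along the rostral migratory stream into the olfactory bulb and become inhibitory interneurons there. Dcx, doublecortin, is a microtubule-associated protein of migrating immature neurons. The Dlx genes encode homeodomain transcription factors of the inhibitory neuron lineage and lie in the genome as linked pairs, and the striatum, made of inhibitory neurons of the same embryonic origin, also keeps some of their expression. Sox11 is an HMG-box factor of the SoxC group in immature neurons, Igfbpl1 encodes a secreted protein related to the insulin-like growth factor binding proteins, and Sp8 and Sp9 are zinc finger factors of olfactory bulb interneurons, of which Sp9 is also used by neurons of the striatum.

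The sequence just before the transcription start is shown for 4 of the genes. Dlx1 and Dlx2 are shown as neighbours in the genome whose levels ran closely together, Dcx because it was measurable in every fraction, and Sp9 as a gene of another family with a like coronal profile. Each sequence is the 250 bases before the start on the gene's own strand, from RefSeq with the assembly GRCm38.p6. Capitals mark matches, on either strand, to 5 short motifs: TAATTA and TAATTG, letters that homeodomain proteins bind; GGGCGG, which Sp factors bind; ACAAAG, which Sox factors bind; and TATAAA. The motifs do not overlap each other in these windows. Dlx1 lies on the plus strand at chr2:71529195-71529444, Dlx2 on the minus strand at chr2:71546755-71547004, Dcx on the minus strand at chrX:143933220-143933469 and Sp9 on the plus strand at chr2:73271676-73271925.
Dlx1: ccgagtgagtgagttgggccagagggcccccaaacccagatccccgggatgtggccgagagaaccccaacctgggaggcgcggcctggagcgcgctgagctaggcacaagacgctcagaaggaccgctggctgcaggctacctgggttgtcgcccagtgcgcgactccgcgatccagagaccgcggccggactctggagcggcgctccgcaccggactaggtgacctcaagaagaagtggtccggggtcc
Dlx2: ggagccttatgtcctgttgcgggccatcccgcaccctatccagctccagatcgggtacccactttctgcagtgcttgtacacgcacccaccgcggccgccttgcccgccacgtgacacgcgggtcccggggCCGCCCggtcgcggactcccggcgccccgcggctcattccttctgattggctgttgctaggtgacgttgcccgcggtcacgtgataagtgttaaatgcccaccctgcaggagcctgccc
Dcx: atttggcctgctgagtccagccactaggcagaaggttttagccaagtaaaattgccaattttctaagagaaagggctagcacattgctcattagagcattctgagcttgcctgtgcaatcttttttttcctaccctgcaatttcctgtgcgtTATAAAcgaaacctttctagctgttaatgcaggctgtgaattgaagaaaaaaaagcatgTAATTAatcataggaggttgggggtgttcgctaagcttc
Sp9: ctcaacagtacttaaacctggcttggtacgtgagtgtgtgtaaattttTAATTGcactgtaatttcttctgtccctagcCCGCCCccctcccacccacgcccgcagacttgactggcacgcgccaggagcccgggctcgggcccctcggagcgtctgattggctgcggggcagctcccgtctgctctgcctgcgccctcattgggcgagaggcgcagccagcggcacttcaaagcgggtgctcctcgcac

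The Dlx1 window held none of the 5 motifs, and the Dlx2 window held GGGCGG on the opposite strand, written as CCGCCC, 119 bases before the start. The Dcx window held TATAAA 98 bases and TAATTA 39 bases before the start. The Sp9 window held TAATTG 202 bases before the start and CCGCCC 171 bases before it. Over the 32851 windows of this length in the table, TAATTA was found in 4.84%, TAATTG in 7.17%, GGGCGG in 32.7%, ACAAAG in 16.5% and TATAAA in 12.4%. Windows were on hand for 6 of the 9 genes, 9 windows in all. Sox11 held GGGCGG 2 times, the 3 windows of Sp8 held TATAAA 2 times, GGGCGG 1 time and TAATTA 1 time, and a second Dcx window, which overlaps the first, also held ACAAAG 8 bases before its start. The GC content was 68% for Dlx1, 66.4% for Dlx2, 62.4% for Sp9 and 41.6% for Dcx, against a median of 52.4% over all windows. A match describes the letters only and is not a bound site. In the RefSeq gene table, used here for names and neighbours, Dlx1 and Dlx2 lie beside each other with the antisense transcript Dlx1as, and Dlx5 and Dlx6 beside each other with Dlx6os1 and Dlx6os2.

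Signal over background limits what the arrays can show. The 75th percentile of the intensity lay between 135 and 574, lowest in sagittal fraction 1, and 24822 to 34240 probes were well above background on an array. Tests ran over 32364 probes, and all 9 genes were among them. These were the 32426 probes that cleared the background flag in 1 or more fractions of every plane, less 62 with incomplete values. The 75th percentile lay 3.62 to 4.14 log2 above the array's median in the coronal, 2.79 to 3.85 in the horizontal and 2.53 to 4.04 in the sagittal series, so that levels scaled by the median shift between fractions by these differences. The arrays came from 4 slides. Coronal fractions 1 and 2 shared a slide with the horizontal series, coronal fractions 3 to 10 had a slide of their own, coronal fractions 11 and 12 shared a slide with sagittal fractions 5 to 10, and sagittal fractions 1 to 4 were on another.

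Along the coronal axis all 9 genes were low in the caudal fractions and rose towards the rostral end. Each of the 9 was higher in both of the fractions 11 and 12 than in any of the fractions 1 to 10, as were 7.83% of the tested probes. The margin was 0.05 log2 for Sox11, below the SD of 0.31 around its fitted curve, and 0.66 (Dlx6) to 2.37 (Dcx) for the others. The level in fraction 12 exceeded the median of fractions 1 to 10 by 0.74 (Sox11) to 6.93 (Sp8) on the log2 scale, with a median difference of 3.80 over the 9 genes and -0.05 over all tested probes. On the linear scale, fractions 11 and 12 held 30.9% (Sox11) to 85.9% (Sp8) of the level summed over the 12 fractions, with a median of 66.2% over the genes and 16.0% over all tested probes. In pooled tissue, fewer cells of a type and less RNA per cell cannot be told apart. These comparisons of fractions 11 and 12, and the other groups of neighbouring fractions named below, were chosen after the levels had been seen.

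Dcx was well above background in all 12 coronal fractions. Its level ran from -1.48 in fraction 2 through a median of -0.32 to 3.73 in fraction 12, a 37.1-fold difference. It lay between -1.48 and -1.03 in fractions 1 to 4, between -0.55 and -0.29 in fractions 5 to 8, and then rose to 0.17, 1.01, 3.38 and 3.73 in fractions 9 to 12. Its largest step, 2.37, was from fraction 10 to fraction 11. Sox11 was also measured in all 12 fractions and had the smallest coronal range of the 9 genes. Its level ran from -2.08 in fraction 2 through a median of -0.13 to 1.03 in fraction 11, an 8.67-fold difference, and had gone from -1.63 in fraction 3 to -0.12 by fraction 5. In these values Dcx gained most of its range rostral to fraction 9, and Sox11 caudal to fraction 5.

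Dlx1 and Dlx2 were not well above background in coronal fractions 1 to 3 and were so in every fraction from 4 on. From fraction 4 to fraction 12 the levels of Dlx1 were -2.27, -1.23, -0.83, -0.54, 0.03, -0.12, 0.90, 2.97 and 3.15. Those of Dlx2 were -2.46, -1.43, -0.75, -0.47, 0.32, 0.17, 0.79, 2.42 and 2.82. The step from fraction 3 into fraction 4, which lies within 1 slide, was at least 2.34 for Dlx1 and at least 2.15 for Dlx2. Fraction 12 was at least 218-fold above fraction 3 for Dlx1 and at least 173-fold for Dlx2. These bounds, and the ones below, take as the lower value the gene's own lowest level or, if that is higher, the dimmest signal that still cleared the background flag on the same array.

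Dlx5 and Dlx6, the other linked pair, had a shoulder in the middle fractions. Dlx5 was well above background from fraction 3 on, and its levels from there were -3.14, -3.87, -3.37, -2.56, -1.83, -0.96, -1.11, -1.09, 0.88 and 0.95. Dlx6 was well above background in fraction 4, at -4.09, and from fraction 6 on, with levels of -2.78, -2.56, -1.43, -1.62, -2.17, -0.77 and -0.68. Dlx6 thus stood higher in fraction 8 than in fraction 10, while Dlx5 was nearly level over fractions 8 to 10. The SD around the fitted curve was 0.64 for Dlx6 and 0.72 for Dlx5. Fraction 12 was at least 44.0-fold above the lowest fraction for Dlx5 and at least 10.8-fold for Dlx6. From fraction 8 to fraction 12 the level of Dlx6 differed by 0.75, against 1.91 for Dlx5, 2.49 for Dlx2 and 3.13 for Dlx1. Markers of the striatum, where Dlx5 and Dlx6 are also known, had their highest list mean in coronal fraction 8. All 8 of those markers passed the coronal test, as did 33.7% of the tested probes, and a pass does not give the fraction of a peak. The part of the striatum in the levels of the Dlx genes was not tested.

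Igfbpl1 was not well above background in coronal fractions 1 to 4. It was at -1.39 in fraction 5, stayed between -1.88 and -1.19 up to fraction 9, and was at 0.02, 1.76 and 1.09 in fractions 10, 11 and 12. Igfbpl1 and Sox11 were the 2 genes that were highest in fraction 11, and the other 7 were highest in fraction 12. For Igfbpl1, fraction 11 was at least 58.3-fold above fraction 1.

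Sp8 had the largest rostral difference of the 9 genes. With the probe used, 1 of 2 for this gene, it was first well above background in fraction 4, at -3.55, and then stood at -3.26, -2.50, -1.51, -0.66, -0.71, 1.12, 3.19 and 4.06. Fraction 12 was at least 287-fold above fraction 1, and Sp8 was the gene with the widest gap between fractions 11 and 12. Sp9 was first well above background in fraction 5, at -3.68, had a local maximum of -1.99 in fraction 8 with -3.26 and -2.57 beside it, and was at 0.04 and 0.10 in fractions 11 and 12. Fraction 12 was at least 26.3-fold above fraction 3 for Sp9.

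**Figure D1:**
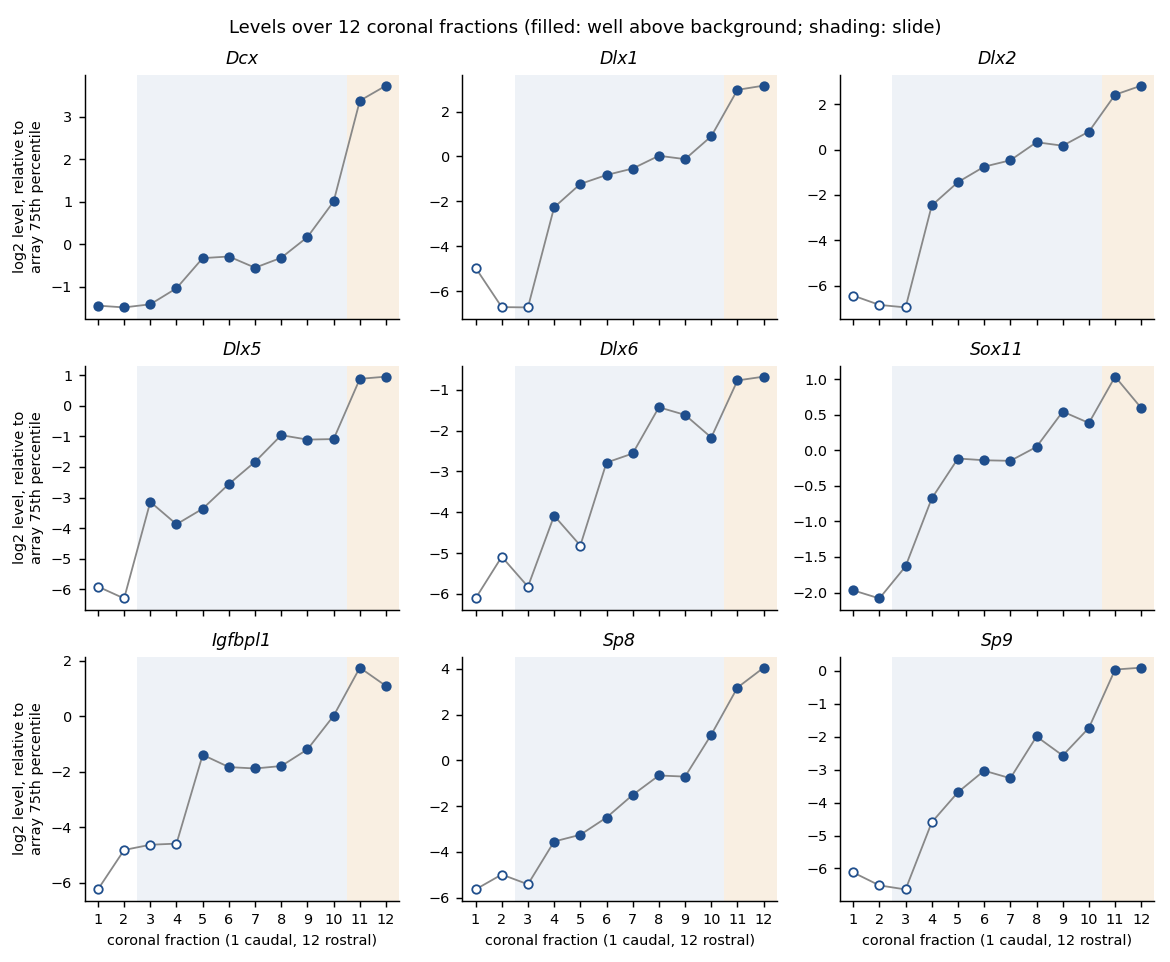
Level of each gene (log2, relative to the 75th percentile of the array) in coronal fractions 1 (caudal) to 12 (rostral), 1 array per fraction and no error bar. Filled points are well above background, open points are not, and shading marks the slide; in every panel the points of fractions 11 and 12 lie above all others.

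The coronal trend was tested with limma as a smooth curve of the fraction number. It passed the threshold of 0.05 for all 9 genes, with adjusted p from 4.95e-05 (Sp8) to 0.00136 (Dlx1), where 33.7% of the tested probes passed. The fitted curve of each of the 9 peaked in fraction 12, which together with a pass held for 9.45% of the tested probes. The fitted range was 3.08 (Sox11) to 10.4 (Dlx2) log2 with a median of 7.20, against a median of 1.46 over all probes that passed, and the SD around the curve was 0.31 (Sox11) to 1.34 (Dlx1). These ranges include caudal values that are not well above background, and with normexp background correction they were 1.93 (Dlx6) to 6.42 (Sp8) with a median of 4.26. As a straight line, the level rose per fraction by 0.27 ± 0.03 (SE) for Sox11, 0.43 ± 0.07 for Dcx, 0.51 ± 0.05 for Dlx6, 0.62 ± 0.05 for Dlx5 and for Sp9, 0.66 ± 0.06 for Igfbpl1, 0.86 ± 0.09 for Dlx1, 0.87 ± 0.06 for Sp8 and 0.90 ± 0.09 for Dlx2. With normexp the slopes were smaller, 0.20 (Dlx6) to 0.55 (Sp8), and all 9 passed there too. All 9 slopes passed (adjusted p 1.09e-05 to 0.00165), while 5.83% of the tested probes had a called slope that was higher rostrally.

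Since the lowest values are not well above background, the line was also fitted over fractions 6 to 12, where all 9 genes were. There 7 of the 9 slopes passed, against 1.22% of the tested probes called as higher rostrally. Dlx6 (0.33 ± 0.08 per fraction, adjusted p = 0.0724) and Sox11 (0.18 ± 0.05, adjusted p = 0.102) did not. Sp8 had the steepest slope of the 9 over these fractions (adjusted p = 0.0204), followed by Dcx with 0.76 ± 0.13 (adjusted p = 0.0358). Without fractions 11 and 12, all 9 curves passed, where 25% of the tested probes did, and all 9 slopes passed, where 14.6% of the probes were called as higher rostrally.

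The step from fraction 10 to fraction 11 was over 1 log2 for 8 of the 9 genes, all but Sox11 (0.65), and for 5.38% of the tested probes. The slide changes between these fractions, so the size of that step and the slide cannot be told apart. Within the slide that holds fractions 3 to 10, all 9 curves passed (adjusted p 0.00997 to 0.0364), where 12.9% of the tested probes did. All 9 slopes were positive there and passed (adjusted p 0.00260 to 0.0367), where 4.89% of the probes were called as higher rostrally. With slide as a term, the 9 slopes passed as well, against 2.64% of the probes called in that direction, while the curve passed for Dlx5, Dlx6 and Sp8 and for 241 of all tested probes (0.745%).

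Markers of other cells of the olfactory bulb moved with these genes. All 4 mitral and tufted cell markers (Cdhr1, Tbx21, Eomes and Doc2g) passed the coronal test with a curve that peaked in fraction 12, as did 9.45% of the tested probes. The summed linear level of the 4 markers was 0.673 to 14.8 in fractions 1 to 10 and 137 to 145 in fractions 11 and 12. The levels in fraction 12 exceeded the median of fractions 1 to 10 by 6.90 for Cdhr1, 5.57 for Eomes and 7.42 for Doc2g. For Tbx21, well above background in 2 of the fractions 1 to 10, the difference was at least 7.36. For the 3 markers of the olfactory nerve layer, Omp, S100a5 and Frzb, the differences were 8.66, 9.16 and 4.01 and the summed level was 0.814 to 10.9 in fractions 1 to 10 and 285 to 329 in fractions 11 and 12. A sum leans towards its brightest probes, so it is read between fractions of 1 list and not between lists. No marker of either list was below background throughout the coronal series. The part of other bulb cells in the rostral levels was not tested, since a fraction holds all cells of its slab.

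Along the horizontal axis, 8 of the 9 genes were highest in fraction 3, and Dlx6 in fraction 5. Fractions 3 and 4 were both above the other 4 fractions for 8 of the 9 genes, all but Dlx6, as they were for 10.2% of the tested probes. The mean of these 2 fractions exceeded the mean of the rest by 0.68 (Sox11) to 2.14 (Sp8) for those 8 genes and by 0.27 for Dlx6. The mitral and tufted and the olfactory nerve lists also had their highest mean in horizontal fraction 3, while the striatum list had it in fraction 4. What these lists contribute to the levels of the 9 genes was not tested.

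The levels of Dcx from dorsal to ventral were -1.07, 0.09, 1.49, 0.95, -0.23 and -0.85, a 5.89-fold difference between the highest and the lowest. Sp8 had the widest measured fold, 6.98-fold, with a level of -1.72 in fraction 1 and 1.08 in fraction 3. For Dlx1 the fold was 3.43, for Dlx2 4.11 and for Dlx5 4.02, each with fraction 3 highest. The ends differed between genes: Igfbpl1 was at -2.31 and -2.52 in fractions 1 and 2 and at 0.18 in fraction 3, then had a second maximum in the most ventral fraction, at -1.14 against -2.22 in fraction 5. Sp9 was not well above background in fractions 1 and 6, and was highest at -2.10 in fraction 3, at least 2.76-fold above fraction 6. Dlx6 ran from -3.20 in fraction 2 to -2.17 in fraction 4 and -2.16 in fraction 5, a 2.06-fold difference with no peak in fraction 3.

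**Figure D2:**
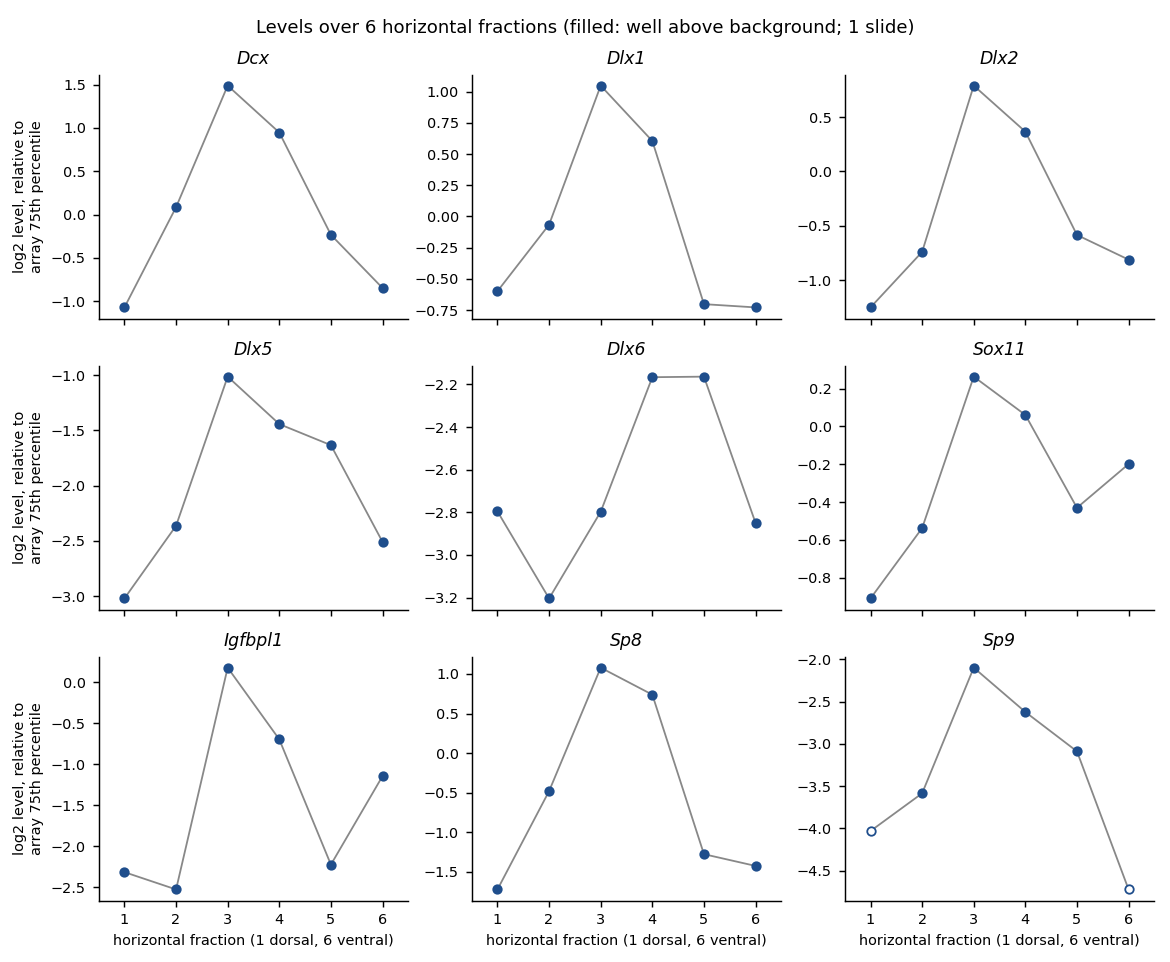
Level of each gene (log2, relative to the 75th percentile of the array) in horizontal fractions 1 (dorsal) to 6 (ventral), 1 array per fraction and no error bar; filled points are well above background. Fraction 3 is the highest point in 8 panels, and in the Dlx6 panel fractions 4 and 5 are.

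The horizontal trend (limma) passed for 3 of the 9 genes, where 15.8% of the tested probes passed. These were Dcx (fitted range 2.15, adjusted p = 0.0328), Sp9 (2.21, adjusted p = 0.0360) and Dlx5 (1.89, adjusted p = 0.0369). Sp8 (2.48, adjusted p = 0.0647) and Dlx2 (1.72, adjusted p = 0.0815) did not pass in this fit, nor did Dlx1, Sox11, Igfbpl1 and Dlx6 (adjusted p 0.105 to 0.503). With normexp background correction in its place 3 genes passed too, where 28% of the tested probes did, but they were Dcx, Dlx2 and Sp8, while Sp9 (fitted range 0.21, adjusted p = 0.679) and Dlx5 (0.42, adjusted p = 0.386) did not pass. With the array median as the scale 8 of the 9 passed, all but Dlx6, where 59.8% of the tested probes did. With 6 fractions the count rests on single arrays. It was 0 without fraction 1 and without fraction 6, where 2213 and 1336 of the 32364 probes passed. Without fraction 2 it was 1 (3324 probes), and without fraction 5 it was 4 (5754 probes). Without fraction 3 or fraction 4 it was 0 and no probe passed, although 10053 and 7679 had an unadjusted p under 0.05.

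Across the sagittal axis, 6 genes had a plateau around the midline. Dcx, Dlx1, Dlx2, Dlx5, Sp8 and Sp9 were higher in each of the fractions 5, 6 and 7 than in any of the other 7 fractions, which held for 2.04% of the tested probes. With the array median or quantile normalization Igfbpl1 joined these 6, and with normexp background correction Dlx5 and Sp9 left them. Sox11 and Igfbpl1 were also highest in fraction 7, but Sox11 in fraction 2 (-0.17) and Igfbpl1 in fraction 9 (-0.62) reached into their range of fractions 5 to 7. Dlx6 was highest in fraction 10, although not with every scale. The slide changes between fractions 4 and 5, so the rise into the plateau and the slide cannot be told apart. The fall from fraction 7 to fraction 8 lies within 1 slide.

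The level of Dcx was 1.00, 1.04 and 1.32 in fractions 5 to 7 and -1.37 to -0.08 elsewhere. That of Dlx1 was 0.53 to 0.68 against -1.23 to -0.32, and that of Dlx2 was 0.13 to 0.37 against -1.97 to -1.21. Sp8 had a wider gap, with 0.80 to 0.97 in these fractions, -0.93 as the highest value elsewhere and -3.35 in fraction 1, a 20.1-fold difference between its highest and lowest fractions. Dlx5 moved little, 1.90-fold over the whole series, from -2.33 in fraction 1 to -1.40 in fraction 6. Igfbpl1 was not well above background in fraction 1 and reached -0.34 in fraction 7, at least 11.4-fold higher. Sp9 was not well above background in fractions 1, 9 and 10.

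The plateau was not centred between fractions 5 and 6. In fraction 7 all 9 genes were higher than in its mirror, fraction 4, with a median absolute difference of 1.52 against 0.20 over all tested probes. In the pair of fractions 5 and 6 the median was 0.20 against 0.19. Fractions 4 and 7 lie on different slides. The bulb lists leaned the same way, with 4 of 4 mitral and tufted markers (median 2.10) and 3 of 3 olfactory nerve markers (median 1.91) higher in fraction 7, while 8 of 8 striatum markers were lower there (median -0.44). The share of all tested probes that were higher in fraction 7 is not given here, so these counts and that of the 9 genes have no background. How far the brain was turned or shifted against the sectioning axis was not tested. At the outer edge, 5 of the 9 genes, Dcx, Dlx1, Dlx2, Dlx6 and Sp8, were well above background in fraction 10 and higher there than in fraction 9 by over 0.5 log2, as were 37.5% of the tested probes. With normexp 2 genes met this criterion, Dcx and Dlx1, as did 23.5% of the probes. With the array median (69.3% of the probes) and with quantile normalization (36.0%), Dlx5 and Sox11 met it in addition to those 5. Sp9 was not well above background in either fraction.

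**Figure D3:**
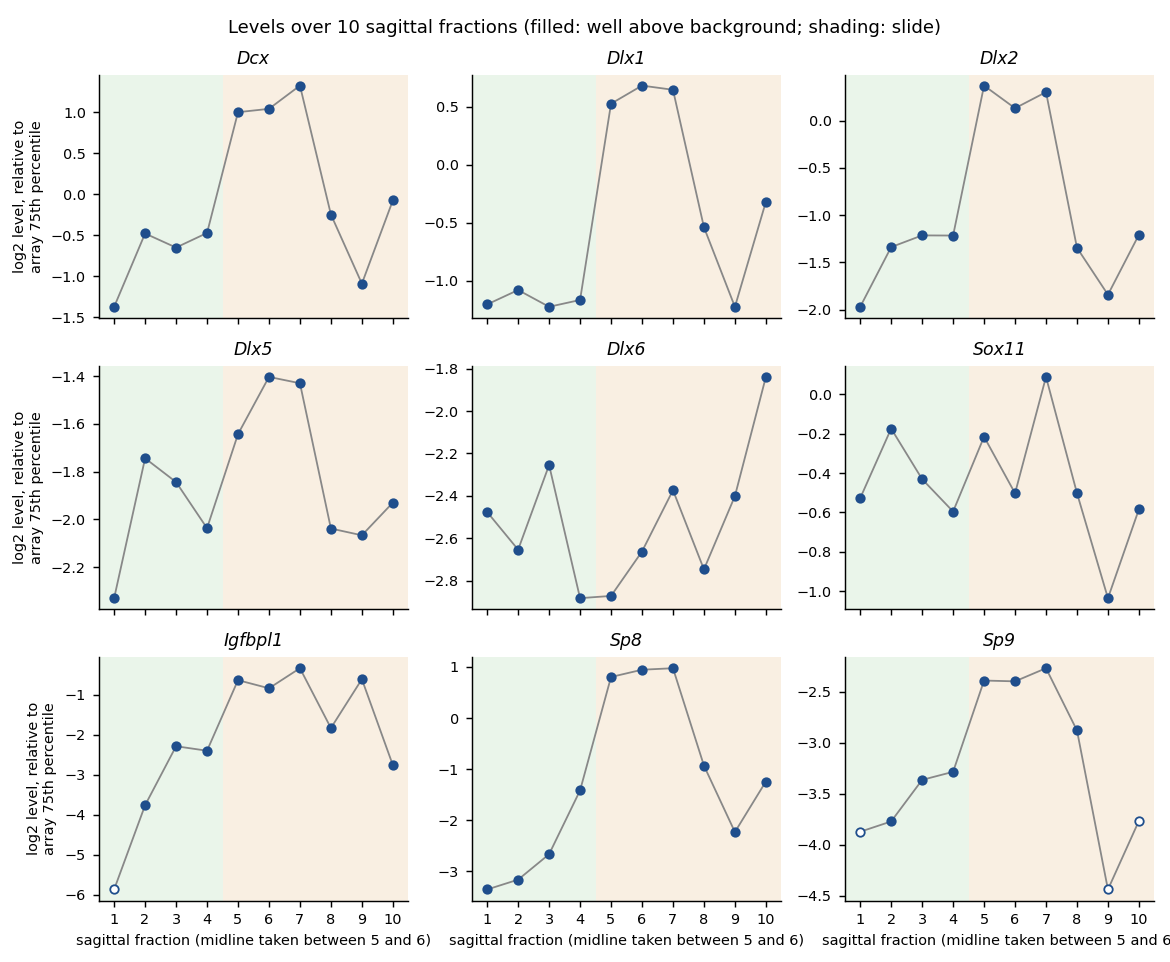
Level of each gene (log2, relative to the 75th percentile of the array) in sagittal fractions 1 to 10, with the midline taken between fractions 5 and 6, 1 array per fraction and no error bar. Filled points are well above background and shading marks the slide; in the panels of Dcx, Dlx1, Dlx2, Dlx5, Sp8 and Sp9 the points of fractions 5 to 7 lie above the rest.

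The slope on the distance from the midline (limma) passed for 4 of the 9 genes, all higher at the midline, where 7.72% of the tested probes were called in that direction. Per fraction outwards the level fell by 0.88 ± 0.22 (SE) for Sp8 (adjusted p = 0.0204), 0.48 ± 0.11 for Dlx2 (adjusted p = 0.0159), 0.47 ± 0.13 for Dcx (adjusted p = 0.0315) and 0.42 ± 0.09 for Sp9 (adjusted p = 0.0141). With normexp the slopes of the 9 genes lay between -0.522 and 0.188, and that of Sp9 was 0.0340 and did not pass. The slopes of Igfbpl1 (-0.80 ± 0.26, adjusted p = 0.0512) and Dlx1 (-0.36 ± 0.13, adjusted p = 0.0766) did not pass, nor did those of Dlx5, Sox11 and Dlx6. The number of genes that passed was 1 without fraction 1 or fraction 5, 2 without fraction 6 and 6 without fraction 10. Without fraction 10, 9.59% of the probes were called as higher at the midline. Over all probes the slope was called for 1962 without fraction 1, 3344 without fraction 5 and 3583 without fraction 6. Of these, 1347, 2257 and 2406 were higher laterally. The number of genes was 2 without fractions 1 and 9 together, the dimmest of the 10 arrays by their 75th percentile. Those 2 were Sp9 and Igfbpl1, while Sp8 (adjusted p = 0.0887), Dlx2 (0.0647) and Dcx (0.143) no longer passed. As a free curve along the axis, 2 genes passed, Igfbpl1 (adjusted p = 0.0114) and Sp8 (adjusted p = 0.0418), where 14.7% of the tested probes did. Without fraction 10 it was 6 genes, where 47.1% of the probes passed, without fraction 9 it was 4, where 38.8% did, and without fraction 1 no gene and no probe passed (5955 at an unadjusted p under 0.05). When any 1 of the fractions 2 to 7 was left out, Igfbpl1 alone passed, where 2020 to 3000 of the 32364 probes did. With the array median (1.04% of the probes) and quantile normalization (8.12%) Sp8 did not pass either. On the slide of fractions 5 to 10 alone, neither the curve nor the slope passed for any of the 9 genes or any probe, with 2330 and 6223 probes at an unadjusted p under 0.05. With the 5 distances from the midline as a factor in place of the slope, no gene and no probe passed either (5406 at an unadjusted p under 0.05).

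The 9 genes had positive correlations with each other over the whole set of fractions. Over the 28 fractions the 36 pairs had Pearson's r between 0.63 and 0.99 with a median of 0.87 (median Spearman's rho 0.81). The median r was 0.92 over the 12 coronal, 0.83 over the 6 horizontal and 0.66 over the 10 sagittal fractions, and it was 0.82 without coronal fractions 11 and 12. In coronal fractions 1 to 3 most of the genes were not well above background, and such values have no order. Over the 18 fractions where all 9 genes were well above background, the median r was 0.89 (0.57 to 0.98), and over the 7 coronal ones of these, fractions 6 to 12, it was 0.95. Between the 9 genes and the 32351 other tested probes the median r was -0.02 over the same 18 fractions. These values describe the fractions, which share mice, slides and neighbouring tissue. Dlx1 and Dlx2 had the highest r of all pairs over the 28 fractions and over the coronal ones, 0.99 in both, with 0.92 over the horizontal and 0.93 over the sagittal ones. Over the 18 fractions with all genes well above background their r was 0.97, below that of Dcx and Dlx1 (0.98). The highest pairs in the horizontal and sagittal series were Dcx and Sp8 (0.98, horizontal) and Dcx and Dlx2 (0.98, sagittal). The windows of Dlx1 and Dlx2 printed above share no motif match. Dcx and Sp8 ran together in all 3 series as well, at 0.95, 0.98 and 0.94 in the same order.

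Dlx6 stood apart outside the coronal series. Its r with Dlx5, its neighbour in the genome, was 0.91 over the coronal, 0.48 over the horizontal and -0.09 over the sagittal fractions. All 8 of its correlations over the 10 sagittal fractions were below 0, from -0.39 (Sp9) to -0.09 (Dlx5), but over sagittal fractions 2 to 8, where all 9 genes were well above background, they ran from -0.18 (Sp8) to 0.38 (Sox11). The fraction in which Dlx6 was highest also moved with the scale: when levels were scaled by the array median it was horizontal fraction 4 and sagittal fraction 3, so the positions given for Dlx6 in these planes hold for the 75th percentile as the scale.

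**Figure D4:**
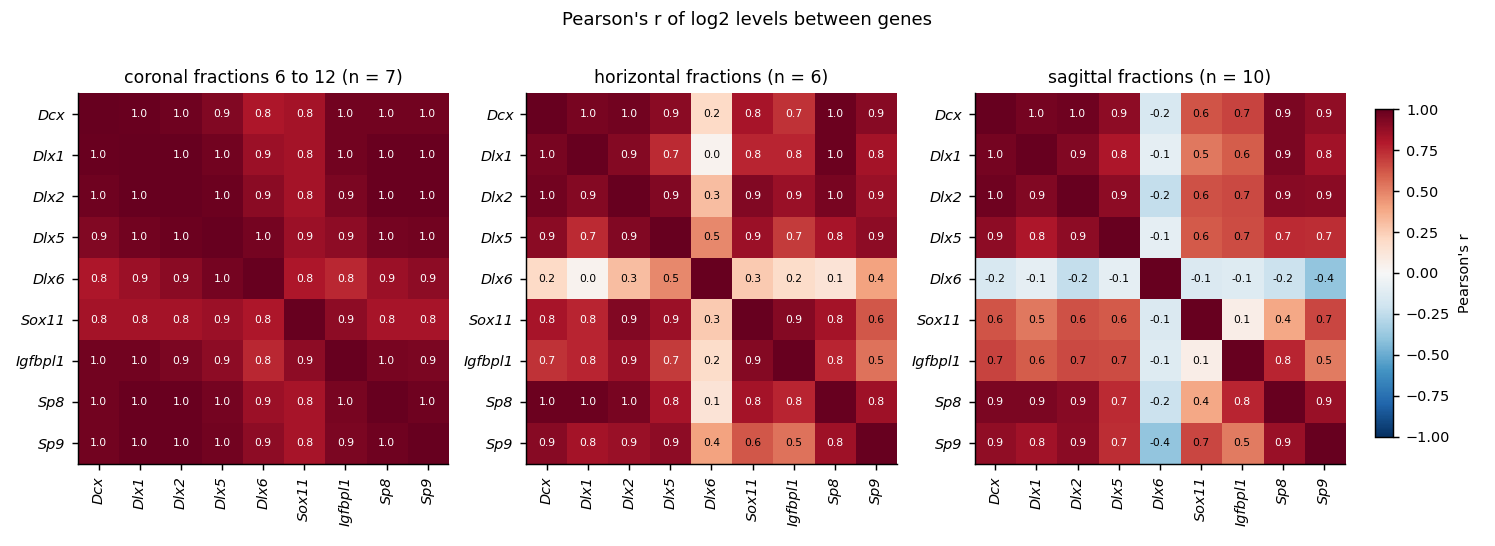
Pearson's r of log2 levels between each pair of the 9 genes over coronal fractions 6 to 12, where all 9 genes were well above background, the 6 horizontal and the 10 sagittal fractions; red is positive, blue negative, and the printed values are r. The coronal pairs have r from 0.76 to 0.99, while the row of Dlx6 is pale in the horizontal and blue in the sagittal panel.

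The array held further probes for 3 of the genes. Both other Dcx probes were dimmer, well above background in 13 and 6 of the 28 fractions, and were highest in coronal fraction 12 too. Over the fractions where both were well above background their r with the probe used was 0.97 (13 fractions) and 0.77 (6 fractions). The other Sox11 probe ran with the first at r = 0.99. The coronal curve and slope of each of these 3 probes passed. The second Sp8 probe did not follow the first, although both are assigned to the same RefSeq transcript. Its r with the probe used was 0.43 over 28 fractions, its highest coronal fraction was 10, and its level in fraction 12 exceeded the median of fractions 1 to 10 by 0.93, against 6.93 for the probe used. It was well above background in all 12 coronal fractions, also in fractions 1 to 3. Its coronal range was 6.94-fold, against at least 287-fold for the probe used. Its coronal curve passed with a smaller fitted range (2.82, adjusted p = 0.00147), as did its slope (0.22 ± 0.03, adjusted p = 0.000799), while its midline slope was -0.06 and did not pass (adjusted p = 0.799). The Sp8 levels and differences above therefore hold for 1 of its 2 probes.

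Genes elsewhere on the array were ranked by likeness, as Pearson's r over the 28 fractions, the caudal values not well above background included. A minimum of 14 of the 28 fractions well above background was set for each gene examined, and not for the symbols ranked against it. Those symbols came from the tested probes, and the ones named below were well above background in at least 19 of the 28 fractions. Dlx6os1, the noncoding transcript that lies beside Dlx6, was among the 3 most alike symbols for 5 of the genes: Dlx1 (r = 0.99), Dlx2 (0.98), Sox11 (0.90), Dlx5 (0.90) and Dlx6 (0.90). The most alike symbol of Dcx was Sox4 (0.95), which encodes another SoxC factor, followed by Cdhr1 (0.94), a cadherin of mitral and tufted cells. Cdhr1 was also the most alike to Sp8 (0.94). The third for Dcx was Otop2 (0.93), and the others for Sp8 were Cdca7 (0.93) and Sp9 (0.92). Dlx1 was followed by Dlx2 (0.99) and Cpne4 (0.95), Dlx2 by Dlx1 (0.99) and Igsf9 (0.94), and Dlx5 by Hmgb3 (0.90) and Sp9 (0.90). Igfbpl1 was nearest to Cdca7 (0.90), Sp8 (0.88) and Tfap2c (0.88), Sp9 to Cpne4 and Dlx2 (both 0.94), and Sox11 to Dlx2 (0.93) and Insm1 (0.92). Dlx6 was nearest to Tiam2 (0.92) and Scube1 (0.90), with an r of -0.25 and -0.03 over the horizontal and 0.82 and 0.38 over the sagittal fractions. The r of Dlx6 with Dlx6os1 was 0.07 over the horizontal and -0.02 over the sagittal fractions. The number of other probes with r over 0.85 ran from 4 for Igfbpl1 to 58 for Dcx.

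Among the other transcripts of the Dlx loci, Dlx6os1 passed the coronal test with a peak in fraction 12 (adjusted p = 0.000255). Dlx6os1 was well above background in 7 of the fractions 1 to 10, and its level in fraction 12 exceeded their median by 4.00. Dlx1as was well above background in fraction 12 and in none of the fractions 1 to 10, so its difference was at least 2.41. It cleared the coronal detection filter through the rostral end alone, so its pass in the coronal test is not read as a trend. Dlx3 (adjusted p = 0.0352) and Dlx4 (adjusted p = 0.0138), family members of other loci, also passed, with a difference of -0.86 for Dlx3 and of at most -1.22 for Dlx4, which was not well above background in fraction 12. Of the other SoxC factors, Sox4 passed (3.23, adjusted p = 0.000604), with a difference of 2.39, and Sox12 did not (adjusted p = 0.560). Of the 6 other Sp factors tested, Sp1 and Sp7 passed with a curve peak in fraction 12 and differences of 0.59 and at least 3.20, and Sp5 passed with a curve peak in fraction 1. Sp7, known from bone, was well above background in 18 of the 28 fractions.

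The other genes of the neurogenic lineage were described from lists by stage, with no test of a list. Their counts stand against 33.7% of all tested probes that passed the coronal test and 9.45% that passed with a peak in fraction 12. Of 11 stem cell and radial glia genes, 8 passed the coronal test and 3 of these peaked in fraction 12, with a median rostral difference of 0.53. Fabp7, a fatty acid binding protein of radial glia and of the ensheathing glia of the olfactory nerve, differed by 4.44, and Hes5, a Notch target, by 2.46. Thbs4, an astrocyte protein, had its curve peak in fraction 7 and a difference of -3.26, and Pax6 had its curve peak in fraction 1 and a rostral difference of 2.30. Of 9 genes of dividing precursors tested, 4 passed, a share near that over all probes, and the median difference was -0.14. Mki67, a gene of dividing cells, had its curve peak in fraction 9 and a difference of -0.62, and Dll1, a Notch ligand, had its peak in fraction 12, where the difference was 1.35. Top2a and Ccnb1, also of dividing cells, were not well above background in fraction 12 and were so in 1 and 5 of the fractions 1 to 10, so no difference is given for them.

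Of 15 other genes of migrating neuroblasts tested, 9 passed the coronal test (33.7% of all probes), 6 of them with a peak in fraction 12 (9.45%), and 11 had a called slope that was higher rostrally (5.83%). The median difference was 0.89. The widest fitted ranges were those of Prokr2, the receptor for prokineticin 2 (4.78), Sox4, Cd24a, a surface glycoprotein (2.70), and Robo2, a receptor for Slit proteins (2.19), and their differences were 3.58, 2.39, 2.05 and 0.97. Among broader markers of young neurons, the difference was 0.28 for Tubb3 (adjusted p = 0.0501) and 0.01 for Stmn1, which passed with a peak in fraction 9. Among 9 guidance ligands, 6 passed and 2 of these peaked in fraction 12. Prok2, the prokineticin that attracts neuroblasts to the bulb, was well above background in 4 of the fractions 1 to 10 and had a difference of at least 4.59 (adjusted p = 0.000467), and Reln, the detachment signal reelin, of 2.43 (adjusted p = 0.00394). Slit1 and Slit2, known as repellents, had curve peaks in fractions 8 and 7 and differences of -1.51 and -1.33.

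Of 14 genes of olfactory bulb interneurons, 12 passed the coronal test (33.7% of all probes), 9 of them with a peak in fraction 12 (9.45%), and 9 were called as higher at the midline (7.72%), with a median rostral difference of 2.47, or 1.93 with levels not well above background set to their bound. Among the 14, Sall3 was well above background in fraction 12 and in none of the fractions 1 to 10, so it was tested through the rostral end alone. Th, the enzyme of dopamine synthesis in periglomerular cells, had a difference of 3.94. The difference of Calb2 was 2.55, and that of Calb1, abundant in Purkinje cells and not well above background in fraction 12, at most -3.16. Of 9 genes of cortical interneurons, which share the Dlx lineage, 8 passed and 2 peaked in fraction 12, with a median difference of -0.90, or -0.77 with levels at their bound. These 2 were Npy (fitted range 3.02, adjusted p = 0.00156), the gene of neuropeptide Y, and Htr3a (2.70, adjusted p = 0.0422), which encodes a serotonin receptor. The differences were 1.54 for Npy, 1.48 for Htr3a, -3.20 for Pvalb, -3.50 for Sst, and -0.04 for Vip, with a curve peak in fraction 7. Nkx2-1 was not well above background in fraction 12. All 5 genes of immature dentate granule cells, another place of postnatal neurogenesis, passed. Eomes, which is also the mitral cell gene given above, peaked in fraction 12, while the difference was at most -2.26 for Prox1, -1.94 for Tbr1 and -0.17 for Neurod1, and Neurog2 was well above background in 2 of the fractions 1 to 10 and not in fraction 12.

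**Figure D5:**
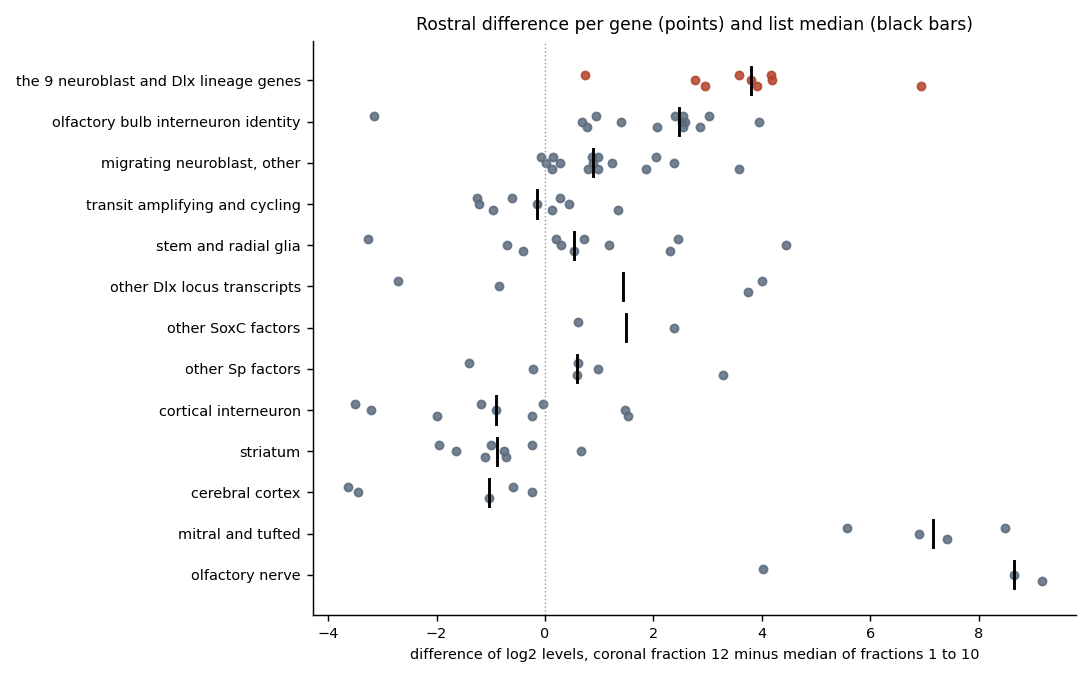
Difference of log2 levels, coronal fraction 12 minus the median of fractions 1 to 10, for each tested gene (points) of the 9 lineage genes (red) and of 12 other lists (grey), with list medians as black bars. The lineage genes have a median of 3.80, below the mitral and tufted (7.16) and olfactory nerve (8.66) lists and above the bulb interneuron list (2.47). Levels not well above background are plotted as measured.

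Lists of regions away from the bulb were described in the same way, against the same 33.7% of all probes. None of their genes passed the coronal test with a peak in fraction 12, except Atoh1, of the cerebellar external granule layer, which was well above background in 3 of the 28 fractions. Atoh1 was well above background in none of the coronal fractions 1 to 10, so its pass is not read as a trend. In the striatum list 8 of 8 passed, among them Drd1 (difference -1.11), Adora2a (0.67) and Rgs9 (-0.72). In the cerebral cortex list Neurod6, Rorb, Cux2 and Emx1 passed, with differences of -3.63 to -0.23. In the hippocampus list C1ql2, Tdo2 and Prox1 passed, none of them well above background in fraction 12, and Dsp and Fibcd1 did not. In the thalamus list 0 of 4 passed (Tcf7l2, Prkcd, Lef1 and Gbx2, adjusted p 0.0886 to 0.626, with 1 at an unadjusted p under 0.05), and in the hypothalamus list Avp did (0.97) and the other 5 did not.

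The hindbrain list passed in 5 of 5 tested genes, of which Hoxb5, Hoxa5, Hoxc4 and Hoxb8 had the widest ranges, and none of those 4 was well above background in fraction 12. The cerebellum list, Pcp2, Cbln1, Cbln3 and Gabra6, passed in 4 of 4, all with a curve peak in fraction 1. Mbp, Mog and Mag of the oligodendrocyte list also passed, with differences of -2.84, -2.68 and -2.25. Of the choroid plexus and ependyma list Ccdc153 passed (-3.70) and Ttr (-3.45) and Foxj1 (-0.44) did not. Barhl1 (-0.90) and Mfap4 (0.08) of the cerebellar granule layer and the pituitary genes Cga, Tshb and Lhb (adjusted p 0.348 to 0.598) did not pass.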

How the data were processed

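RNA of every fraction was hybridised with a single dye, Cy3, to 1 Agilent array. The authors scanned the arrays, and the deposited intensity is the background-subtracted signal that Agilent Feature Extraction 10.5.1.1 gave, with mm9 as the build named in the headers. Flags, other than intensities, that the authors deposited mark spots as outliers, saturated or well above background. The authors also deposited log2 values, normalized per array.

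Here, outlier spots were left out, spots of a probe averaged, and log2 of the intensity minus the array's 75th percentile was taken. A probe counted as well above background where at least 0.5 of its spots had that flag. Of 55681 probes, 27235 (48.9%) were named through RefSeq symbols. Trends were tested with limma 3.58.1 (R 4.3.3) as natural cubic splines with 3 degrees of freedom (coronal, sagittal) or 2 (horizontal), or as straight lines, over 32364 probes with Benjamini-Hochberg adjustment and a threshold of 0.05. The script was tested on simulated data. A local maximum exceeds its neighbours by over 0.5 log2.

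The genes, lists, tests and alternatives were chosen with earlier results of these data known. All 9 genes are named in each comparison; from each list, up to 4 genes past the coronal threshold with the largest fitted range are named, and every gene of lists of 5 or fewer, as are the 3 symbols most alike to each gene. Some genes that this rule selects are not reported here. Other names were chosen after their values were seen. Precision is limited by the number of arrays. No spot was saturated.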

Additional observations from a re-analysis of the deposited data

How the results depend on the processing

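The alternatives were the array median or quantile normalization in place of the 75th percentile, normexp background correction (on the median spot signal, since the mean is not among the columns used here), the authors' log2 values, no filter on dim probes, outlier spots kept, a simpler curve, slide as a term or a slide alone, other probes, and each fraction left out. The coronal counts of 9 genes stayed at 9 for the curve and the slope under each of these that was fitted, also without each fraction in turn (9 to 9), except that slide as a term left 3 curves, and fractions 6 to 12 alone left 7 slopes. Other probes were not put into these counts, and the simpler curve was fitted for the curves only. The horizontal count of 3 was 8 with the array median (59.8% of all probes), 5 with quantile normalization (21.2%) and 0 with a straight line. When a fraction was left out it was 0 to 4, where 0 to 5754 probes passed. It stayed at 3 with normexp (28.0% of all probes), but Dlx2 and Sp8 took the place of Dlx5 and Sp9. The sagittal curve count of 2 was 1 with the array median (1.04% of all probes), 1 with quantile normalization (8.12%) and 0 with slide as a term (7.79%). It was 0 on the slide of fractions 5 to 10, where no probe passed. With normexp it was 3 (Dlx6, Igfbpl1 and Sp8), where 44.2% of all probes passed. When a fraction was left out it was 0 to 6 (6 without fraction 10, where 47.1% of all probes passed). The midline count of 4 was 0 on the slide of fractions 5 to 10 and 0 with the 5 distances as a factor, where no probe passed either. It was 5, with Igfbpl1 added, with the array median (4.37% of all probes called in either direction) and with slide as a term (19.6%). With no filter on dim probes it was 3 (6.13%), and Dcx did not pass. It was 2 (Sp9 and Igfbpl1) without fractions 1 and 9, and 1 to 6 when a fraction was left out. With normexp the midline slopes of Dlx5 (0.0117) and Sp9 (0.0340) turned positive, and the 4 called were Dcx, Dlx2 and Sp8, higher at the midline, and Dlx6, higher laterally (0.188); and with the array median that of Dlx6 turned to -0.0384. The counts of genes highest in coronal fractions 11 and 12 (9) and in horizontal fractions 3 and 4 (8) were the same with each of the 5 array-level alternatives. The fits over fractions 6 to 12 or 1 to 10 and without fractions 1 and 9, these 2 counts, the bounds on list genes and the correlations over fractions with all genes well above background were chosen after seeing the data. The cause of the changes was not tested. Over all probes, the horizontal curve was called for 5115, 19347 with the array median and 9066 with normexp; the sagittal curve for 4767, 337 and 14295; and the midline slope for 6732, 1413 and 14077, of which 4234, 213 and 10681 were higher laterally. The horizontal straight line called 1 probe. The rostral difference changed beyond the SD around the curve for Dlx5 (2.85), Dlx6 (1.53), Sp8 (5.78) and Sp9 (2.31) with normexp and for the other probes of Dcx (4.82) and Sp8 (0.93). The median r of pairs was 0.66 in the sagittal series alone. No paired analysis was possible because fraction numbers of different planes are positions on different axes of different mice. Dim caudal and lateral fractions limit what can be said there, since values not well above background have no order.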
